A study of Mus musculus with 9 samples.

Results

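Lipo-BiTE-treated tumours were compared with PBS-treated tumours across all genes, 3 libraries a side and 6 of the 9 libraries sequenced in the series. The libraries were chosen by their labelled treatment, and no measured value entered that choice. Every tumour was labelled as MB49, a mouse bladder cancer cell line, with overexpression of HER2, a growth factor receptor on the cell surface. The control group received PBS, a salt solution, and the treated group received Lipo-BiTE. A BiTE is a bispecific T cell engager, a protein that binds a T cell with one arm and a target cell with the other. The labels give no dose, day, age, sex or mouse strain, and no group treated with the carrier alone is among the labelled groups, so the engager and its formulation cannot be told apart. The labels describe homogenised frozen tumour, whereas the design text names sorted CD3+ T cells from tumours at the end of the experiment. The count columns name the control group as untreated, which was read as PBS. Whether replicates are separate mice is not stated, and a p-value here speaks only of the variation among these libraries, which may be technical.

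Engaged T cells release toxic granules and cytokines onto the cell they are tethered to. Cytokines such as interferon and TNF act on tumour, stromal and myeloid cells through NF-kB and immediate early transcription factors, and recruited macrophages and neutrophils bring their own programmes of lipid handling, iron storage, lysosomal digestion and glycolysis. Proliferating tumour cells depend on replication factors, nucleotide and one-carbon metabolism, ribosome assembly and the making of new membrane lipids. Levels in bulk RNA are relative to the rest of the library. A lower level can mean fewer cells of a type, less RNA per cell or more RNA from other cells, and these cannot be told apart here.

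The 6 libraries held between 13152783 and 16419940 counts. Adipocyte markers summed to under 2 CPM (read counts scaled to a common library total) in each, and Lep, Ckm of skeletal muscle and Krt1 of keratinocytes were at 0 counts. Skeletal muscle markers summed to 31.1 to 34 CPM in PBS and 19.2 to 26.5 CPM in Lipo-BiTE, with none of 3 tested called. None of 8 B cell, 4 platelet, 5 pericyte and smooth muscle or 4 keratinocyte markers tested was called, and 1 of 5 mast cell markers was. All 13 T cell markers were called higher, and their summed level was 57.2 to 68.6 CPM in PBS and 268 to 507 CPM in Lipo-BiTE. All 9 tested macrophage and monocyte markers were higher, with sums of 123 to 189 CPM against 931 to 2160 CPM, and so were all 8 neutrophil markers, at 169 to 363 CPM against 1350 to 7560 CPM. Fibroblast markers summed to 2160 to 3260 CPM in PBS and 1410 to 2370 CPM in Lipo-BiTE, so the groups overlapped, and 6 of 10 were called lower. The summed epithelial and tumour markers ranged from 902 to 975 CPM in PBS and from 612 to 841 CPM in Lipo-BiTE, although 2 of 6 tested were called higher and none lower (median log2 fold change -0.08). The fibroblast sum and the epithelial sum each exceeded the T cell sum in all 6 libraries. The libraries are read here as whole tumour, as labelled, and not as sorted T cells. For the T cell, macrophage, neutrophil, fibroblast and epithelial lists the exact two-sided permutation p of the mean log2 CPM of the tested markers, not of the sums, was 0.1, the smallest that 3 against 3 libraries allow. That mean weights each marker alike. The 2 epithelial markers called higher were Krt7 and Cdh1 (log2 fold change 7.07 and 2.63), so the epithelial p does not bear on the lower sum. Krt8, an epithelial keratin, measured 463, 479 and 453 CPM in PBS and 266, 341 and 380.0 CPM in Lipo-BiTE (log2 fold change -0.50 ± 0.22 SE, adjusted p = 0.15). Erbb2, the mouse gene for HER2, was at 17.1, 23.6 and 23.2 CPM in PBS and 13.2, 22.3 and 21.4 CPM in Lipo-BiTE (log2 fold change -0.17 ± 0.23 SE, adjusted p = 0.66). Neither was called. Whether the labelled HER2 has the mouse or the human sequence is not stated, so Erbb2 does not check that label. The urothelial marker Upk3a did not pass the filter on low counts.

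Of 16596 genes tested, 2283 (13.8%) were called higher in Lipo-BiTE and 534 (3.22%) were called lower, at an adjusted p under 0.05 in edgeR's quasi-likelihood test. The 2 directions differed in size. The median log2 fold change was 2.47 among genes called higher and -0.72 among genes called lower, and -0.02 over all tested genes. A change of more than 4-fold was seen for 1369 of the genes that rose and 61 of those that fell. Libraries of the 2 groups did not overlap for 3761 genes (22.7%) that lay higher in Lipo-BiTE and for 3227 (19.4%) that lay lower. The genes called higher took 6.55% to 7.42% of all counts in the PBS libraries and 27.55%, 19.81% and 12.99% in Lipo-BiTE 1, 2 and 3. With libraries scaled by total counts alone, 2079 genes were called higher and 988 lower, the share of calls that were higher was 67.8% in place of 81%, and the median of all genes moved by -0.13 on the log2 scale.

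The 3 Lipo-BiTE libraries were graded. Lipo-BiTE 1 had the highest value of the 3 in 89.9% of the genes called higher and the lowest value in 77.2% of those called lower, and Lipo-BiTE 3 had the lowest value in 88.9% of the genes called higher and the highest in 79.4% of those called lower. PBS 2 and PBS 3 were closer to each other than any other pair of replicates, with a chi-square per degree of freedom of 4.98 against 34.2 to 95.5. A value of 4.98 is above sampling noise, but repeat preparations of the same tumour could also give it. Whether PBS 2 and PBS 3 are separate tumours therefore cannot be told. All 6 libraries were counted, and if they are not separate the p-values are too small. Without Lipo-BiTE 3, 2656 genes were called higher and 971 lower, and without Lipo-BiTE 1 the counts were 1455 and 80. The number called lower was 143, 199, 176 and 104 without PBS 1, PBS 2, PBS 3 and Lipo-BiTE 2. The gene lists below are therefore given with the libraries whose removal changed a count by more than 1.5 times, whereas counts by deposited annotation, chromosome and biotype were not recomputed in this way.

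**Figure D1:**
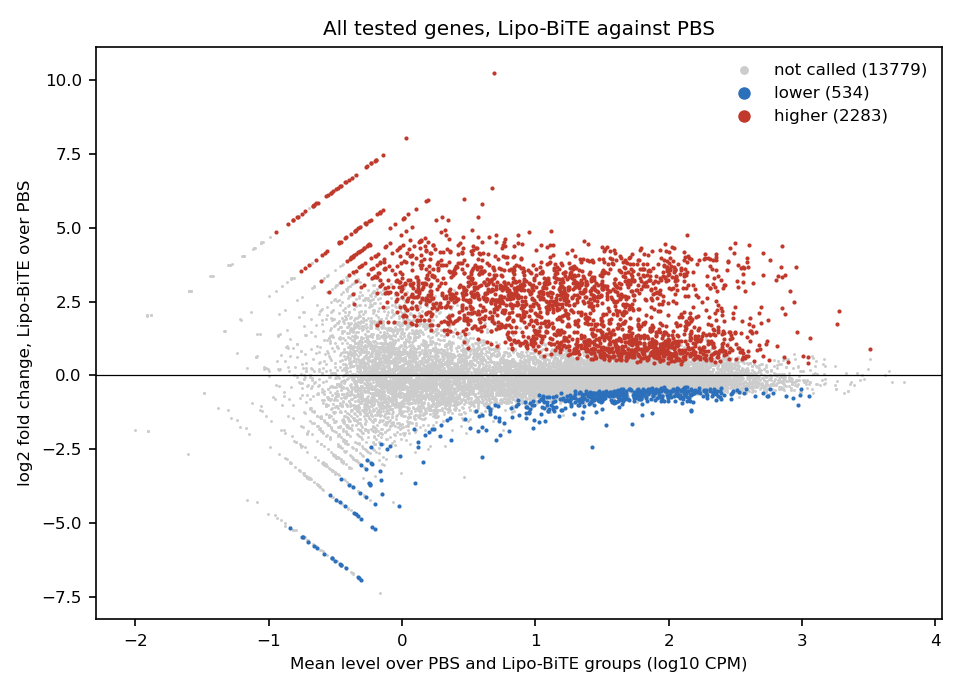
Each point is a tested gene with counts in these 6 libraries: the horizontal axis is its mean level over the PBS and Lipo-BiTE groups in log10 CPM and the vertical axis its log2 fold change, Lipo-BiTE over PBS. The 2283 genes called higher (red) reach far above the 534 called lower (blue), and the diagonal streaks at the left edge are genes at or near 0 counts in one group, whose fitted fold change is not a bound.

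**Figure D2:**
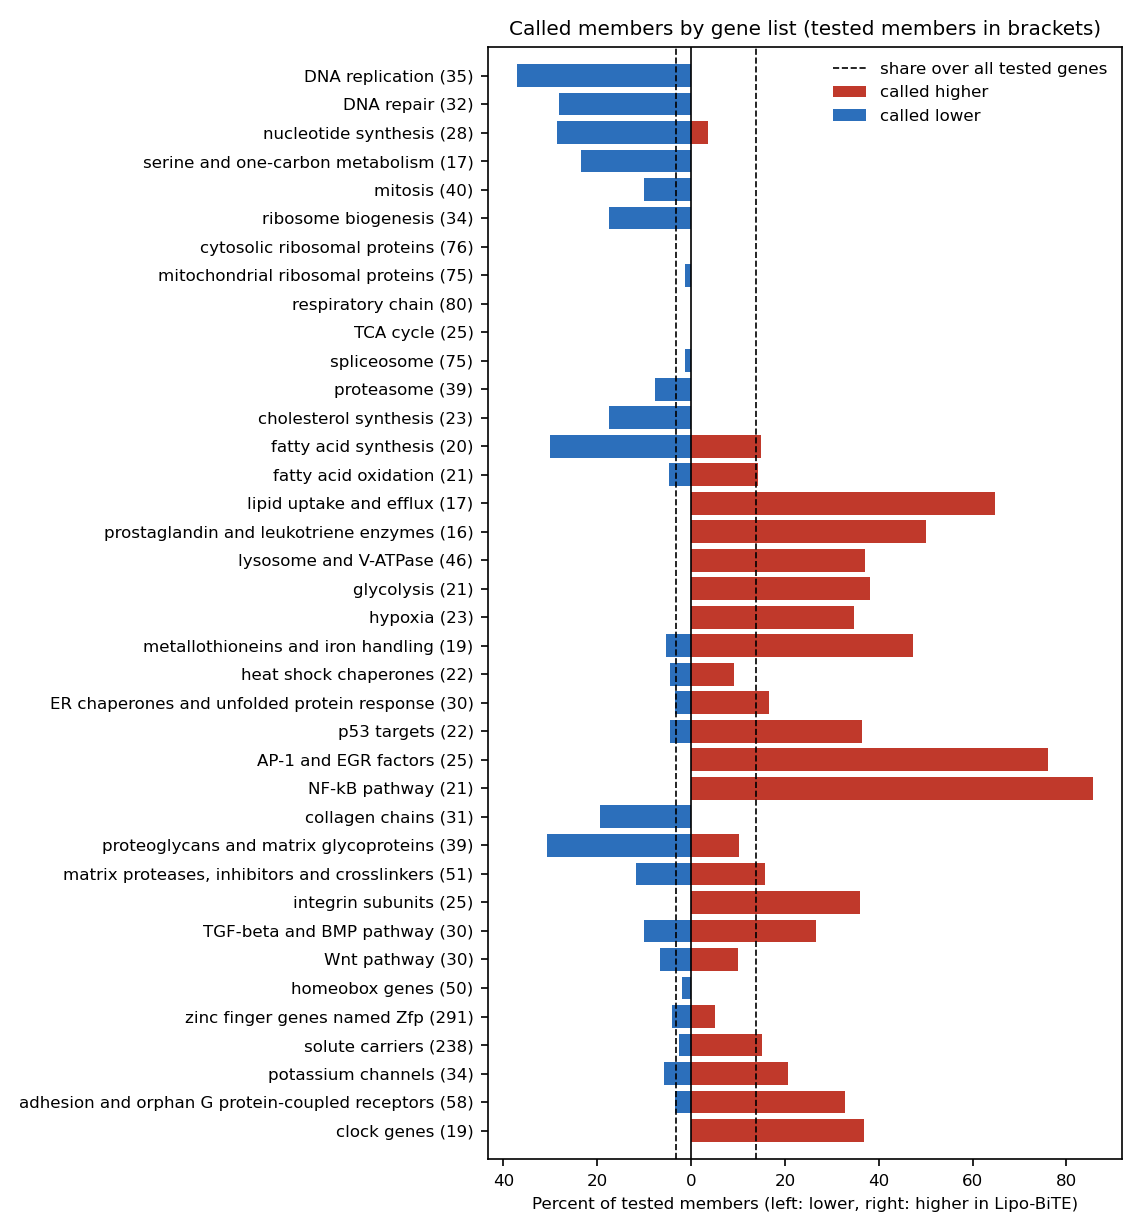
Bars give the percent of tested members of each gene list called higher (red, to the right) or lower (blue, to the left) in Lipo-BiTE, with the number of tested members in brackets and dashed lines at the shares over all genes, 13.8% and 3.22%. The NF-kB and AP-1 lists reach furthest to the right and the DNA replication list furthest to the left.

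Genes of DNA replication were lower where they passed the test. None of 35 was called higher and 13 were called lower (37.1%), with a median log2 fold change of -0.54, and in 27 the Lipo-BiTE libraries all lay below the PBS libraries. Over all genes 3.22% were called lower and 19.4% lay lower without overlap. The MCM proteins form the ring-shaped helicase that opens DNA ahead of the polymerases. Mcm6 measured 328, 299 and 282 CPM in PBS and 164, 177 and 203 CPM in Lipo-BiTE (log2 fold change -0.74 ± 0.13 SE, adjusted p = 0.0031). Mcm4 measured 211, 168 and 172 CPM in PBS and 106, 115 and 131 CPM in Lipo-BiTE (log2 fold change -0.64 ± 0.14 SE, adjusted p = 0.0095) and Mcm7 189, 171 and 167 CPM in PBS and 105, 107 and 127 CPM in Lipo-BiTE (log2 fold change -0.64 ± 0.13 SE, adjusted p = 0.0061). In all 3 genes the lowest PBS library lay above the highest Lipo-BiTE library, and Lipo-BiTE 1 was the lowest. These 3 kept their call whichever library was left out, whereas the number of replication genes called was 4 without PBS 1, 6 without PBS 2, 7 without PBS 3, 3 without Lipo-BiTE 1 or Lipo-BiTE 2 and 21 without Lipo-BiTE 3. It was 24 with total counts and 21 in the Wald test of DESeq2. Epithelial and tumour markers were also lower in sum in these libraries (902 to 975 CPM in PBS and 612 to 841 CPM in Lipo-BiTE). Of the 6 tested, though, 2 were called higher and none lower, with a median log2 fold change of -0.08. Their part in the replication result was not tested.

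DNA sequences of 250 bases before to 50 bases after the gene start (RefSeq, GRCm38.p6) were searched on both strands for 4 spellings of an E2F site, the element through which E2F factors act on replication genes: TTTCCCGC, TTTCGCGC, TTTGCCGC and TTTGGCGC. Of 28 tested replication genes with a promoter entry, 14 (50%) held at least 1 spelling, against 2.6% of 27025 gene symbols, tested or not. Of these 14, 6 were called lower, against 13 of all 35 tested replication genes. The promoters of Mcm6 (chr1:128359656-128359955, minus strand, 3 matches of which a pair overlaps) and Mcm7 (chr5:138171834-138172133, minus strand, 2 matches) are shown because both genes fell, with the matches in capitals and the sequence given along the gene's strand.
Mcm6: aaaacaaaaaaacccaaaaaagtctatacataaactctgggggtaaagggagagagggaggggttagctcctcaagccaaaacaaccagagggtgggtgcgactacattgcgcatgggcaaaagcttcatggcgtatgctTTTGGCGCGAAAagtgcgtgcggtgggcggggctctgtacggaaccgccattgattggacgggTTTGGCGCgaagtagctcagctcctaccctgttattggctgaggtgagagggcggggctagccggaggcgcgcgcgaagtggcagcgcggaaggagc
Mcm7: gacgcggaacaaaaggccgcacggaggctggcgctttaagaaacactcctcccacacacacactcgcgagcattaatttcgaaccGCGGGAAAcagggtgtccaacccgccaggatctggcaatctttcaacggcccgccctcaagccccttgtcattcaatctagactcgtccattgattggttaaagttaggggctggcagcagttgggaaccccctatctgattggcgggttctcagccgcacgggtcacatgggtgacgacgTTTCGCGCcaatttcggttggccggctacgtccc
A match describes the letters only, and binding was not measured.

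Some enzymes that supply DNA synthesis were lower as well. In nucleotide synthesis 8 of 28 genes were called lower and 1 higher, with a median of -0.46, and in serine and one-carbon metabolism 4 of 17 were lower and none higher, with a median of -0.49. Shmt1, which moves a carbon unit from serine onto folate, measured 83.6, 69.5 and 60.8 CPM in PBS and 33.1, 38.3 and 44.9 CPM in Lipo-BiTE (log2 fold change -0.88 ± 0.17 SE, adjusted p = 0.0047). Mthfd1, which interconverts the folate carriers used for purines and thymidylate, measured 153, 139 and 142 CPM in PBS and 77.8, 87.2 and 105 CPM in Lipo-BiTE (log2 fold change -0.68 ± 0.14 SE, adjusted p = 0.0063). Both kept their calls in every leave-one-out fit. Rrm2, a subunit of the enzyme that makes deoxyribonucleotides, measured 195, 152 and 149 CPM in PBS and 66.2, 80.9 and 111 CPM in Lipo-BiTE (log2 fold change -0.94 ± 0.21 SE, adjusted p = 0.011), and lost its call without Lipo-BiTE 2 (adjusted p = 0.051). The number of nucleotide synthesis genes called lower was 2 without PBS 1 or PBS 2, 1 without PBS 3 or Lipo-BiTE 1, 0 without Lipo-BiTE 2 and 15 without Lipo-BiTE 3, and that of one-carbon genes was 2 without PBS 1, PBS 2, PBS 3, Lipo-BiTE 1 or Lipo-BiTE 2 and 7 without Lipo-BiTE 3. The nucleotide count was 13 with total counts and 13 in the Wald test of DESeq2, and the one-carbon count 7 with total counts and 7 in the Wald test of DESeq2. The single gene called higher, Dck, was not called without PBS 1, PBS 2, PBS 3 or Lipo-BiTE 1.

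DNA repair genes were lower in 9 of 32 and higher in none, with a median of -0.38, and the count was 3 without PBS 1 or PBS 3, 4 without PBS 2 and 0 without Lipo-BiTE 1 or Lipo-BiTE 2. Mitosis genes, which build and check the spindle, were called lower in 4 of 40, although all 40 had a negative log2 fold change (median -0.44). Their mean log2 level relative to PBS was -0.78, -0.61 and -0.02 in Lipo-BiTE 1, 2 and 3, so 1 of the 3 libraries was near the control level. The count was 0 without PBS 1, Lipo-BiTE 1 or Lipo-BiTE 2, 1 without PBS 2 or PBS 3 and 29 without Lipo-BiTE 3. Cyclins and cell cycle inhibitors split, with 9 of 22 higher and 4 lower. Ccnd2, a D-type cyclin abundant in lymphoid and myeloid cells, measured 63, 57.3 and 60.1 CPM in PBS and 206, 142 and 113 CPM in Lipo-BiTE (log2 fold change 1.35 ± 0.23 SE, adjusted p = 0.0022). Cdkn1a, the p21 inhibitor of cyclin-dependent kinases, measured 156, 189 and 172 CPM in PBS and 537, 429.6 and 262 CPM in Lipo-BiTE (log2 fold change 1.25 ± 0.27 SE, adjusted p = 0.011). Rb1, the restraint on E2F factors, was at 16.9, 11.6 and 15.6 CPM in PBS and 63.5, 40.8 and 24.7 CPM in Lipo-BiTE (log2 fold change 1.55 ± 0.29 SE, adjusted p = 0.0043). PBS and Lipo-BiTE libraries did not overlap in these 3 genes. The number of genes higher on this list was 5 without PBS 1, PBS 3 or Lipo-BiTE 1, and the number lower was 0 without PBS 1, Lipo-BiTE 1 or Lipo-BiTE 2, 1 without PBS 2 or PBS 3 and 7 without Lipo-BiTE 3.

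Some factors of ribosome assembly were lower, while no protein of the cytosolic ribosome was called. Ribosome biogenesis factors were lower in 6 of 34 (17.6%) and higher in none (median -0.40), with 33 of 34 negative and 24 without overlap between groups. Over all genes 3.22% were called lower and 19.4% lay lower without overlap. Dkc1, the enzyme that converts uridines of ribosomal RNA to pseudouridine, measured 169, 137 and 129 CPM in PBS and 71.4, 73 and 94.4 CPM in Lipo-BiTE (log2 fold change -0.86 ± 0.16 SE, adjusted p = 0.0039). Utp20, a factor of small subunit processing, measured 139, 131 and 137 CPM in PBS and 75.5, 84.9 and 91 CPM in Lipo-BiTE (log2 fold change -0.70 ± 0.13 SE, adjusted p = 0.0043). Both fell in every leave-one-out fit, and the count was 2 without PBS 1, PBS 2 or Lipo-BiTE 1, 3 without PBS 3 or Lipo-BiTE 2 and 14 without Lipo-BiTE 3. It was 13 with total counts and 11 in the Wald test of DESeq2. None of 76 cytosolic ribosomal protein genes passed the test, with a median of -0.21, and the number lower was 1 without Lipo-BiTE 3. Their mean relative log2 level was 0.33, -0.11 and -0.22 in PBS 1, 2 and 3 and -0.18, -0.22 and 0.09 in Lipo-BiTE 1, 2 and 3, so the groups overlapped. Of 75 mitochondrial ribosomal protein genes 1 was called lower, Mrps5 (named after its value was seen), and the count was 0 without PBS 1, Lipo-BiTE 1 or Lipo-BiTE 2 and 4 without Lipo-BiTE 3. In the respiratory chain none of 80 genes was called (median -0.06), and in the TCA cycle none of 25 (median -0.20), although the Lipo-BiTE libraries lay below all PBS libraries for 11 of the TCA genes. Over all genes 19.4% lay lower in this way. The number of respiratory chain genes called higher was 1 without PBS 1, the number lower 1 without PBS 3, and the number of TCA genes lower 2 without Lipo-BiTE 3. With total counts 2 genes of each of these lists were lower.

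**Figure D3:**
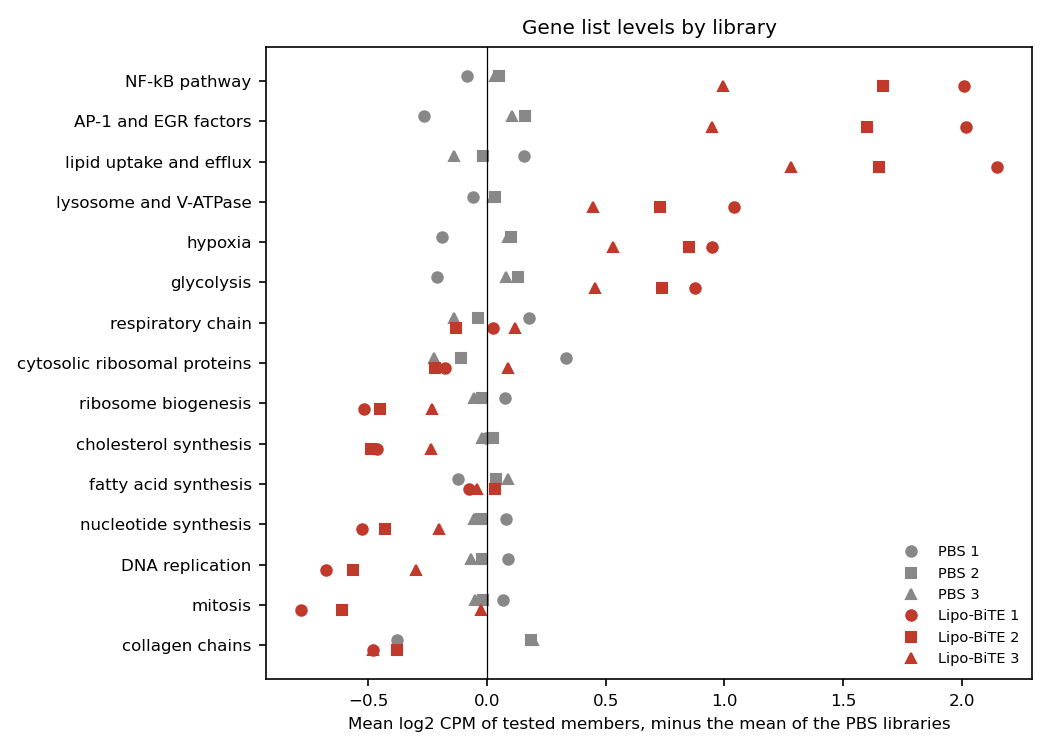
Points give, for each gene list and library, the mean log2 CPM of its tested members minus the mean of the PBS libraries, with PBS in grey, Lipo-BiTE in red and the marker shape giving the replicate. In the NF-kB, AP-1, lipid uptake, lysosome, hypoxia and glycolysis lists the Lipo-BiTE libraries lie above all PBS libraries and in the order 1, 2, 3, whereas in the mitosis list Lipo-BiTE 3 lies among the PBS libraries.

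Lipid genes divided by function. Among called genes, those that make cholesterol and build or desaturate fatty acids were mostly lower, and those that take up and export lipid were higher. In cholesterol synthesis 4 of 23 genes were called lower and none higher, with a median of -0.43. Lss, which closes the sterol rings, measured 63.8, 66.8 and 64.2 CPM in PBS and 30.7, 34.4 and 45.2 CPM in Lipo-BiTE (log2 fold change -0.82 ± 0.18 SE, adjusted p = 0.011). Lss lost its call in 1 leave-one-out fit, without Lipo-BiTE 2 (adjusted p = 0.055), and the count for the list was 1 without PBS 2 or Lipo-BiTE 2, 2 without PBS 3 or Lipo-BiTE 1 and 10 without Lipo-BiTE 3. It was 9 with total counts and 8 in the Wald test of DESeq2. The number higher was 1 without PBS 2 or Lipo-BiTE 3.

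In fatty acid synthesis 6 of 20 genes were lower and 3 higher. The 6 that fell were Acaca, Elovl6, Fads1, Fads2, Scd1 and Scd2, which build, lengthen and desaturate fatty acids. Elovl6, which lengthens saturated chains, measured 240.3, 179 and 196 CPM in PBS and 61.6, 85.9 and 119.9 CPM in Lipo-BiTE (log2 fold change -1.20 ± 0.23 SE, adjusted p = 0.0043). Fads2, the first desaturase of polyunsaturated fatty acids, measured 52.7, 51.2 and 52 CPM in PBS and 6.79, 18 and 23.9 CPM in Lipo-BiTE (log2 fold change -1.68 ± 0.36 SE, adjusted p = 0.01), a level 3.2-fold higher in PBS. Both separated the groups fully, and both stayed called in all leave-one-out fits. The 3 genes that rose were Dgat1, Dgat2 and Elovl7, of which Dgat1 and Dgat2 attach the last acyl chain of stored triglyceride. Dgat1 measured 25, 32.2 and 33.3 CPM in PBS and 262, 170.3 and 67.6 CPM in Lipo-BiTE (log2 fold change 2.47 ± 0.41 SE, adjusted p = 0.0024). Dgat2 was 3.65-fold higher, and 2.32-fold without Lipo-BiTE 1. It lost its call without PBS 1 (adjusted p = 0.064) or PBS 3 (adjusted p = 0.051). The number lower was 3 without PBS 3 or Lipo-BiTE 1 and 2 without Lipo-BiTE 2, and the number higher was 1 without PBS 3. Acsl3, an enzyme that activates fatty acids, measured 51.5, 33.5 and 35.1 CPM in PBS and 14.4, 13.2 and 23.3 CPM in Lipo-BiTE (log2 fold change -1.23 ± 0.25 SE, adjusted p = 0.0067).

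For lipid uptake and efflux 11 of 17 tested genes were called higher and none lower, with a median of 2.13, and no single library changed that count by more than 1.5 times. Abcg1, an exporter of cholesterol to lipoproteins, measured 11.2, 11.5 and 11.1 CPM in PBS and 126, 70.1 and 34.3 CPM in Lipo-BiTE (log2 fold change 2.77 ± 0.39 SE, adjusted p = 0.0011). Msr1, a scavenger receptor for modified lipoproteins, measured 18.2, 8.44 and 6.77 CPM in PBS and 192, 70.4 and 86.5 CPM in Lipo-BiTE (log2 fold change 3.39 ± 0.47 SE, adjusted p = 0.0011). Lpl, the lipase that frees fatty acids from lipoproteins, was at 2.45, 1.89 and 0.416 CPM in PBS and 24.3, 21.1 and 14.4 CPM in Lipo-BiTE (log2 fold change 3.67 ± 0.49 SE, adjusted p = 0.00086). The smallest Lipo-BiTE value was above the largest PBS value in each of these. Cyp27a1, which makes an oxysterol from cholesterol, measured 1.71, 1.24 and 2.32 CPM in PBS and 19, 8.65 and 7.85 CPM in Lipo-BiTE (log2 fold change 2.75 ± 0.43 SE, adjusted p = 0.0017). Macrophages express many genes of this list, and macrophage and monocyte markers rose from sums of 123 to 189 CPM to 931 to 2160 CPM in the same libraries. Their part in the lipid result was not tested.

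Enzymes that turn arachidonic acid into lipid mediators were called higher in 8 of 16 and lower in none (median 0.93). Alox5, the 5-lipoxygenase that starts leukotriene synthesis, measured 4.45, 3.01 and 4.63 CPM in PBS and 44.9, 22.8 and 13.3 CPM in Lipo-BiTE (log2 fold change 2.74 ± 0.40 SE, adjusted p = 0.0012). Tbxas1, thromboxane synthase, measured 3.79, 2.3 and 3.56 CPM in PBS and 34.6, 16.8 and 16.5 CPM in Lipo-BiTE (log2 fold change 2.82 ± 0.34 SE, adjusted p = 0.00076). Alox5ap, which presents the substrate to Alox5, measured 8.24, 12.4 and 13.8 CPM in PBS and 258, 92.7 and 48.4 CPM in Lipo-BiTE, a rise of 11.5-fold that was 6.14-fold without Lipo-BiTE 1. Fatty acid oxidation had 3 of 21 genes higher and 1 lower, near the shares over all genes, and the number higher was 1 without PBS 1 and 0 without PBS 2, PBS 3, Lipo-BiTE 1 or Lipo-BiTE 2 and the number lower 0 without PBS 1, PBS 2, PBS 3, Lipo-BiTE 1 or Lipo-BiTE 2.

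Some genes of sugar use and of the response to low oxygen were higher. In glycolysis 8 of 21 genes were called higher and none lower, with a median of 0.40. Slc2a3, a glucose transporter of high affinity, measured 10.5, 19.4 and 21.1 CPM in PBS and 269, 181 and 67.2 CPM in Lipo-BiTE (log2 fold change 3.34 ± 0.47 SE, adjusted p = 0.0011). Pfkp, the platelet form of phosphofructokinase, measured 157, 203 and 204 CPM in PBS and 659, 521 and 341 CPM in Lipo-BiTE (log2 fold change 1.43 ± 0.22 SE, adjusted p = 0.0016). Pfkfb3, which makes its sugar phosphate activator, had 30.5, 36.2 and 38.4 CPM in PBS and 342, 268 and 77.2 CPM in Lipo-BiTE (log2 fold change 2.71 ± 0.44 SE, adjusted p = 0.0022). Lipo-BiTE 1 was highest in all 3, and Lipo-BiTE 3 still lay above the PBS libraries. The count was 5 without PBS 1, Lipo-BiTE 1 or Lipo-BiTE 2, and the number lower was 1 without Lipo-BiTE 3. Taldo1, of the pentose phosphate pathway, was the 1 gene called among 7 there, at 99.9, 93.6 and 89.1 CPM in PBS and 339, 198 and 131 CPM in Lipo-BiTE (log2 fold change 1.24 ± 0.27 SE, adjusted p = 0.011).

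Of 23 hypoxia genes 8 were called higher (34.8%) and none lower (median 0.62), and 15 separated the groups fully with Lipo-BiTE higher. Over all genes 13.8% were called higher and 22.7% lay higher without overlap. Ero1l, an oxidase that forms disulfide bonds in the endoplasmic reticulum, measured 97.7, 119 and 135 CPM in PBS and 394, 357 and 190.2 CPM in Lipo-BiTE (log2 fold change 1.42 ± 0.28 SE, adjusted p = 0.006). Pfkfb4 measured 11.9, 18.1 and 18.2 CPM in PBS and 101, 63.1 and 33.2 CPM in Lipo-BiTE (log2 fold change 2.03 ± 0.35 SE, adjusted p = 0.0028). Ddit4, an inhibitor of mTORC1, was at 48, 67.5 and 64.5 CPM in PBS and 157, 118 and 94.8 CPM in Lipo-BiTE (log2 fold change 1.04 ± 0.20 SE, adjusted p = 0.0046). Each kept its call in every leave-one-out fit, and the count was 5 without PBS 1 or Lipo-BiTE 2 and 4 without Lipo-BiTE 1.

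Several genes of iron storage and haem breakdown were higher, with 9 of 19 genes for metal handling called higher and 1 lower. Fth1, the ferritin heavy chain that stores iron, measured 735, 716 and 604 CPM in PBS and 4579, 3427 and 1365 CPM in Lipo-BiTE (log2 fold change 2.19 ± 0.40 SE, adjusted p = 0.0043). Hmox1, which splits haem and frees its iron, measured 23.2, 28.7 and 29.7 CPM in PBS and 302, 219 and 93.3 CPM in Lipo-BiTE (log2 fold change 2.91 ± 0.44 SE, adjusted p = 0.0015). Slc40a1, ferroportin, the iron exporter, measured 1.56, 5.31 and 6 CPM in PBS and 111, 67.3 and 26.1 CPM in Lipo-BiTE (log2 fold change 3.97 ± 0.60 SE, adjusted p = 0.0015). The gene called lower was Tfrc, the transferrin receptor for iron uptake, which was not called without PBS 1, PBS 3, Lipo-BiTE 1 or Lipo-BiTE 2. For arginine and polyamines 5 of 15 genes rose and none fell, in each leave-one-out fit. Arg2, a mitochondrial arginase, measured 1.34, 3.84 and 5.35 CPM in PBS and 77.7, 58.7 and 16.1 CPM in Lipo-BiTE (log2 fold change 3.84 ± 0.67 SE, adjusted p = 0.0032). Ass1, which rebuilds arginine from citrulline, had 2.82, 3.01 and 2.38 CPM in PBS and 35.2, 33 and 10.6 CPM in Lipo-BiTE (log2 fold change 3.26 ± 0.43 SE, adjusted p = 0.00092). Smox, spermine oxidase, had 33, 68.5 and 69.6 CPM in PBS and 694, 547 and 178 CPM in Lipo-BiTE (log2 fold change 3.05 ± 0.49 SE, adjusted p = 0.002). PBS 1 was the lowest library for Arg2 and Smox, and Lipo-BiTE 3 was the lowest treated library for all 3.

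Lysosomal genes were higher in 17 of 46 tested (37%, against 13.8% over all genes) and lower in none, with a median of 0.49. The groups separated fully with Lipo-BiTE higher in 28 and lower in 3, against 22.7% and 19.4% over all genes. Gm2a, the activator protein for ganglioside breakdown, measured 56.6, 45.5 and 48.2 CPM in PBS and 651, 311 and 229.6 CPM in Lipo-BiTE (log2 fold change 2.99 ± 0.34 SE, adjusted p = 0.00076). Psap, the precursor of the saposins, measured 792, 877 and 847 CPM in PBS and 4245, 2262 and 1941 CPM in Lipo-BiTE (log2 fold change 1.75 ± 0.26 SE, adjusted p = 0.0012), the second largest gain in CPM of any gene named by rule. Laptm5, a lysosomal membrane protein of blood cells, measured 34.9, 60.3 and 63.3 CPM in PBS and 1114, 569 and 339 CPM in Lipo-BiTE (log2 fold change 3.67 ± 0.45 SE, adjusted p = 0.00077). Tfeb, a transcription factor for lysosomal genes, had 12.1, 13 and 14.1 CPM in PBS and 57.6, 39.7 and 33.2 CPM in Lipo-BiTE (log2 fold change 1.73 ± 0.31 SE, adjusted p = 0.0031). The genes called included 7 subunits of the proton pump that acidifies the lysosome.

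The palindrome TCACGTGA, the core of the element bound by Tfeb and its relatives, was found in 6 of 35 tested lysosomal genes with a promoter entry (17.1%) and in 1.12% of all symbols. Of these 6, 4 were called higher, Atp6v0d1, Atp6v1a, Ctsa and Ctsd, against 17 of 46 over the whole list. The promoters of Ctsd, the lysosomal protease cathepsin D (chr7:142387778-142388077, minus strand), and Atp6v1a, the catalytic subunit of the proton pump (chr16:44139210-44139509, minus strand), are shown with the palindrome in capitals. Both genes were named after their values were seen.
Ctsd: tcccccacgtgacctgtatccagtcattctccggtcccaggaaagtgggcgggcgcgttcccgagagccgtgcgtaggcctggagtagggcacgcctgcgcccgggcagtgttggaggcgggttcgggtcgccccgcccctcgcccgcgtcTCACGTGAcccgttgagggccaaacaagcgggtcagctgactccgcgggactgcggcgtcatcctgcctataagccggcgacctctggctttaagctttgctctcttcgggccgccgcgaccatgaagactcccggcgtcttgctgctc
Atp6v1a: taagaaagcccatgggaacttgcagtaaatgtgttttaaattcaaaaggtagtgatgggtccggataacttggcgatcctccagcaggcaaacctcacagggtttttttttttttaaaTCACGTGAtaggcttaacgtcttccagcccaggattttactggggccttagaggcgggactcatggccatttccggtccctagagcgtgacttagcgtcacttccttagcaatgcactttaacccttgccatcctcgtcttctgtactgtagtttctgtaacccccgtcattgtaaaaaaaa
Ctsd measured 455, 434 and 423 CPM in PBS and 1151, 821 and 617 CPM in Lipo-BiTE (log2 fold change 0.98 ± 0.20 SE, adjusted p = 0.0064). Atp6v1a was at 157, 159 and 169.8 CPM in PBS and 317, 298 and 213 CPM in Lipo-BiTE (log2 fold change 0.77 ± 0.18 SE, adjusted p = 0.015). The groups did not overlap in either gene, but Atp6v1a lost its call without PBS 1, PBS 2, Lipo-BiTE 1 or Lipo-BiTE 2 (adjusted p up to 0.062).

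Other parts of protein turnover had fewer calls. Proteasome genes were called lower in 3 of 39 (7.69%, against 3.22% over all genes) and higher in none. Psmb7, a catalytic subunit that the immunoproteasome replaces, measured 183, 149 and 147 CPM in PBS and 94.6, 94.5 and 100.1 CPM in Lipo-BiTE (log2 fold change -0.73 ± 0.17 SE, adjusted p = 0.012), and was not called without Lipo-BiTE 2 (adjusted p = 0.052). The count was 1 without PBS 1, PBS 2, Lipo-BiTE 1 or Lipo-BiTE 2, and the number higher was 1 without Lipo-BiTE 3. Among genes of the endoplasmic reticulum and unfolded protein response 5 of 30 rose and 1 fell (16.7% and 3.33%), close to the 13.8% and 3.22% over all genes. Those with the smallest p were Ddit3, the CHOP transcription factor, at 17.2, 15.5 and 16.3 CPM in PBS and 76.1, 60.7 and 29.5 CPM in Lipo-BiTE (log2 fold change 1.76 ± 0.33 SE, adjusted p = 0.0049), and Ppp1r15a, which restores translation after stress, at 63.8, 82.9 and 81.9 CPM in PBS and 284, 233 and 136 CPM in Lipo-BiTE (log2 fold change 1.51 ± 0.26 SE, adjusted p = 0.0023). The member that fell, Hsp90b1, a chaperone of the reticulum, kept its call only without Lipo-BiTE 3, where 3 members were lower. Heat shock genes included the steepest rise of a chaperone: Hspa1b, the inducible HSP70, measured 18.3, 30.6 and 31.2 CPM in PBS and 917, 659.9 and 237 CPM in Lipo-BiTE (log2 fold change 4.50 ± 0.46 SE, adjusted p = 0.00076), a 22.6-fold difference. Only 1 other gene of the 22 rose, Dnajb1 (named after its value was seen), and 1 fell (9.09% and 4.55%). Without any 1 of PBS 1, PBS 2, PBS 3, Lipo-BiTE 1 or Lipo-BiTE 2 the number of heat shock genes called higher was 1 and lower 0.

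Most of the immediate early factors listed were higher. Among AP-1, EGR and related genes 19 of 25 rose and none fell, with a median of 1.68, and no single library moved the count by more than 1.5 times. Egr1, a zinc finger factor induced within minutes of a stimulus, measured 244, 264 and 277 CPM in PBS and 2343, 1552 and 556 CPM in Lipo-BiTE (log2 fold change 2.51 ± 0.40 SE, adjusted p = 0.0021). Zfp36, which destabilises cytokine mRNAs, measured 182, 220.0 and 190.4 CPM in PBS and 2265, 1361 and 676 CPM in Lipo-BiTE (log2 fold change 2.86 ± 0.35 SE, adjusted p = 0.00077). Atf3, a bZIP factor of stress responses, had 21.7, 27.6 and 22.9 CPM in PBS and 312, 197 and 98.6 CPM in Lipo-BiTE (log2 fold change 3.07 ± 0.37 SE, adjusted p = 0.00077). Dusp1, a phosphatase that switches off MAP kinases, measured 92, 139 and 151 CPM in PBS and 2091, 1257 and 524 CPM in Lipo-BiTE (log2 fold change 3.34 ± 0.46 SE, adjusted p = 0.001). In these 4 genes Lipo-BiTE 1, 2 and 3 followed each other downwards and all were above PBS. The deposited transcription factor annotation gave the same direction for the bZIP family, with 15 of 43 tested genes higher and none lower.

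The NF-kB pathway had the largest share of called genes among the lists drawn in the bar chart, with 18 of 21 higher and none lower (median 1.48), and 11 without PBS 1. NF-kB is held in the cytoplasm by IkB proteins, and its activation induces those same inhibitors. Nfkbia, encoding IkB-alpha, measured 186, 172 and 177 CPM in PBS and 1091, 852 and 367 CPM in Lipo-BiTE (log2 fold change 2.11 ± 0.33 SE, adjusted p = 0.0017). Nfkbie, encoding IkB-epsilon, measured 8.68, 7.73 and 8.44 CPM in PBS and 59.6, 46.3 and 24.6 CPM in Lipo-BiTE (log2 fold change 2.39 ± 0.32 SE, adjusted p = 0.00091). Tnfaip3, the A20 enzyme that ends signalling, measured 38.5, 45.1 and 42 CPM in PBS and 385, 317 and 138 CPM in Lipo-BiTE (log2 fold change 2.74 ± 0.32 SE, adjusted p = 0.00076). Icam1, an adhesion molecule for leukocytes, was at 3.12, 6.26 and 5.11 CPM in PBS and 119, 83.4 and 41.5 CPM in Lipo-BiTE (log2 fold change 4.06 ± 0.42 SE, adjusted p = 0.00076). In these 4 genes each Lipo-BiTE library was above all PBS libraries, with Lipo-BiTE 3 the lowest of the 3.

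The kappa B site, the binding element of NF-kB, was searched by its degenerate 10-base motif on both strands of the same 300-base windows. It was found in 8 of 17 tested members with a promoter entry (47.1%) and in 5.14% of all symbols. The genes were Bcl3, Nfkb2, Nfkbia, Nfkbie, Rel, Tnfaip3, Tnip1 and Tnip3. Of them 7, all but Tnip3, were called higher, against 18 of 21 over the whole list. The promoters of the inhibitors are shown for Nfkbia (chr12:55492598-55492897, minus strand, 1 match), Nfkbie (chr17:45555450-45555749, plus strand, 1 match) and Tnfaip3 (chr10:19015361-19015660, minus strand, 2 matches), with the matches in capitals.
Nfkbia: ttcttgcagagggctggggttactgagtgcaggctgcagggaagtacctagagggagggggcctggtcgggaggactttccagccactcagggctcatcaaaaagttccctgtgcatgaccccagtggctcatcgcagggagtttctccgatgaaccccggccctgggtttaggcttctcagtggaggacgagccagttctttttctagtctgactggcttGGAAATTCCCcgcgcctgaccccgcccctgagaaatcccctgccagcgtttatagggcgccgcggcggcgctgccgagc
Nfkbie: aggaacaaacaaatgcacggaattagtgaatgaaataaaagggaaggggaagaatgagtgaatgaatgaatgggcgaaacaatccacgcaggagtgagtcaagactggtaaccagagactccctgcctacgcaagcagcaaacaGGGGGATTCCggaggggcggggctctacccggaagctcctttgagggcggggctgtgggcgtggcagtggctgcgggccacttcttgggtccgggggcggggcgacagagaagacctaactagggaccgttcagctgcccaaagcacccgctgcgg
Tnfaip3: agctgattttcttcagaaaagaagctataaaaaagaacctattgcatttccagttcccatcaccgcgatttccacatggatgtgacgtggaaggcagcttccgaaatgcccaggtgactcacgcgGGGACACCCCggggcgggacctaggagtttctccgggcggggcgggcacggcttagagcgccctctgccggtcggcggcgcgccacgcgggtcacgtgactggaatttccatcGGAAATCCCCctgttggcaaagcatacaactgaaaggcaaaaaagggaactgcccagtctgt

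**Figure D4:**
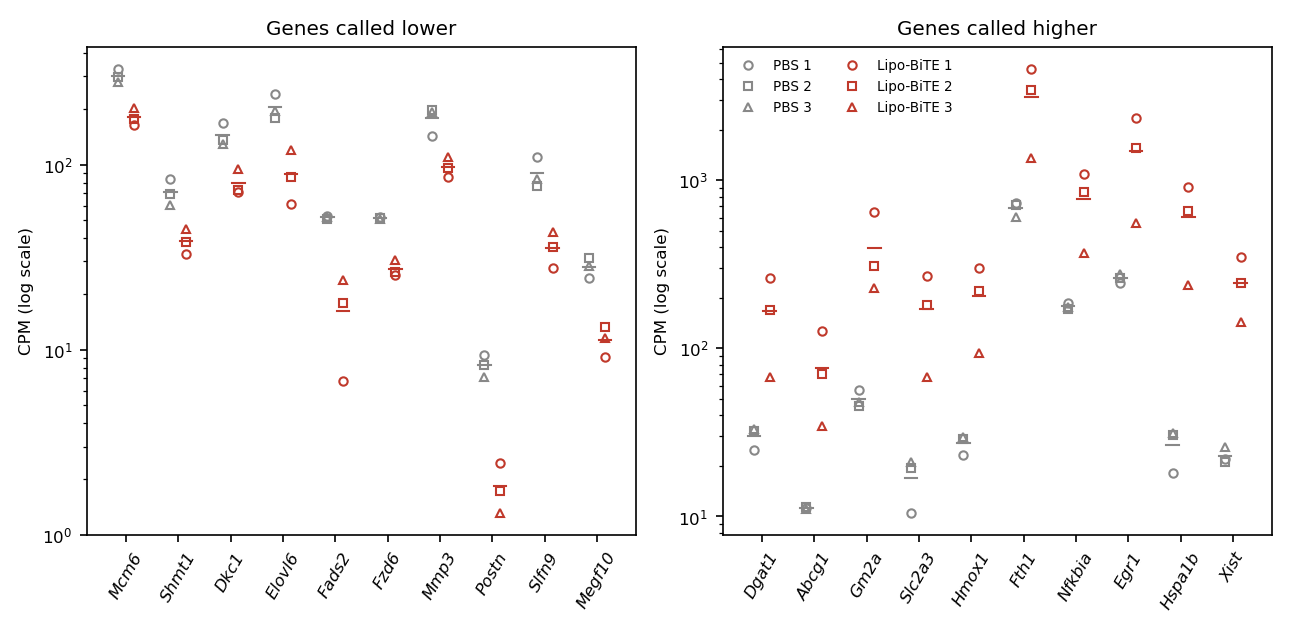
Points give CPM on a log scale in each library for 10 genes called lower (left) and 10 called higher (right), with PBS in grey, Lipo-BiTE in red, the marker shape giving the replicate and short bars the group means. In all 20 genes the 2 groups do not overlap, and Lipo-BiTE 3 is the Lipo-BiTE library nearest to PBS in most of them.

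Genes induced by p53 were higher in 8 of 22 and lower in 1 (36.4% and 4.55%, against 13.8% and 3.22% over all genes). The number higher was 5 without Lipo-BiTE 1, and the number lower was 0 without PBS 1 or Lipo-BiTE 2. The list shares members with other responses. Pmaip1, the NOXA protein that opposes Mcl1, measured 6.53, 7.91 and 9.21 CPM in PBS and 149.6, 94.4 and 45.1 CPM in Lipo-BiTE (log2 fold change 3.61 ± 0.38 SE, adjusted p = 0.00076). Btg2, an antiproliferative factor, had 64.3, 69.5 and 63.2 CPM in PBS and 406, 255 and 138 CPM in Lipo-BiTE (log2 fold change 2.02 ± 0.31 SE, adjusted p = 0.0018). Fas, a death receptor, measured 2.45, 2.12 and 1.66 CPM in PBS and 23.5, 19 and 7.93 CPM in Lipo-BiTE (log2 fold change 3.02 ± 0.42 SE, adjusted p = 0.001). In the BCL2 and cell death list 7 of 26 rose and 1 fell (26.9% and 3.85%, against 13.8% and 3.22% over all genes). Mcl1, which protects mitochondria, measured 498, 477 and 469 CPM in PBS and 1956, 1322 and 760.0 CPM in Lipo-BiTE (log2 fold change 1.48 ± 0.27 SE, adjusted p = 0.0034). Ripk3, the kinase of necroptosis, was at 6.01, 2.6 and 4.81 CPM in PBS and 64, 34.1 and 18.5 CPM in Lipo-BiTE (log2 fold change 3.12 ± 0.46 SE, adjusted p = 0.0013). The member that fell was Casp12, an inflammatory-type caspase, at 58, 34.6 and 37.2 CPM in PBS and 17.4, 20 and 22.1 CPM in Lipo-BiTE (log2 fold change -1.12 ± 0.24 SE, adjusted p = 0.0086). It was called lower in every leave-one-out fit, and the number lower was 2 without Lipo-BiTE 3.

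Part of the structural matrix was lower. Collagen chains were called lower in 6 of 31 and higher in none, with a median of -0.48, and the count was 2 without PBS 2 and 3 without PBS 3, Lipo-BiTE 1 or Lipo-BiTE 2. Col1a2, a chain of type I collagen, measured 16.4, 63 and 55 CPM in PBS and 10.7, 5.34 and 9.24 CPM in Lipo-BiTE (log2 fold change -2.41 ± 0.45 SE, adjusted p = 0.0045). Col5a2, of type V collagen, measured 5.42, 6.61 and 8.14 CPM in PBS and 2.76, 0.827 and 1.96 CPM in Lipo-BiTE (log2 fold change -1.86 ± 0.40 SE, adjusted p = 0.0095). The most abundant chain, Col3a1, measured 1908, 2836 and 2773 CPM in PBS and 1254, 1551 and 2170.3 CPM in Lipo-BiTE (log2 fold change -0.60 ± 0.24 SE, adjusted p = 0.12) and was not called. PBS 1 was below the other PBS libraries in all 3 chains, and for Col3a1 it fell within the Lipo-BiTE range. Fibroblast markers, which include collagens, moved in the same libraries (summed 2160 to 3260 CPM in PBS and 1410 to 2370 CPM in Lipo-BiTE), and their part in the matrix result was not tested.

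Among proteoglycans and matrix glycoproteins 12 of 39 fell and 4 rose, and the number lower was 7 without PBS 1, 4 without PBS 2, 5 without PBS 3 or Lipo-BiTE 1 and 2 without Lipo-BiTE 2. Postn, periostin, measured 9.43, 8.26 and 7.13 CPM in PBS and 2.45, 1.73 and 1.31 CPM in Lipo-BiTE (log2 fold change -2.18 ± 0.34 SE, adjusted p = 0.0015). Thbs3, a thrombospondin, was at 30.2, 36.9 and 35.5 CPM in PBS and 18.2, 16 and 22.3 CPM in Lipo-BiTE (log2 fold change -0.86 ± 0.18 SE, adjusted p = 0.0078). The 4 that rose were Nid2, Srgn, Thbs1 and Vcan. Srgn, the proteoglycan of leukocyte granules, measured 57.2, 81.9 and 78.5 CPM in PBS and 1798, 1065 and 383 CPM in Lipo-BiTE (log2 fold change 3.90 ± 0.52 SE, adjusted p = 0.00094). Vcan, a large proteoglycan that monocytes also make, measured 13.3, 14.1 and 13.4 CPM in PBS and 250.2, 83.3 and 53.2 CPM in Lipo-BiTE, 9.47-fold higher and 5.03-fold without Lipo-BiTE 1. Matrix proteases and their inhibitors moved both ways, with 8 of 51 higher and 6 lower (15.7% and 11.8%, against 13.8% and 3.22% over all genes). Mmp3, stromelysin, measured 143, 198 and 194 CPM in PBS and 86, 96.3 and 110.2 CPM in Lipo-BiTE (log2 fold change -0.87 ± 0.17 SE, adjusted p = 0.0057). Serpine2, a serine protease inhibitor, had 95, 123 and 122 CPM in PBS and 54.7, 62.9 and 67.6 CPM in Lipo-BiTE (log2 fold change -0.88 ± 0.17 SE, adjusted p = 0.0053). By contrast Mmp12, macrophage elastase, measured 11.8, 4.37 and 6.53 CPM in PBS and 80.8, 57.5 and 45.6 CPM in Lipo-BiTE (log2 fold change 3.03 ± 0.47 SE, adjusted p = 0.0018). The number of these genes called higher was 5 without PBS 1, and the number lower was 2 without PBS 3.

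Adhesion receptors of leukocytes were among the genes that rose. Integrin subunits rose in 9 of 25 and fell in none, with counts of 8 or 9 in the leave-one-out fits. Itgax, the CD11c subunit of myeloid cells, measured 17.7, 14.4 and 15.1 CPM in PBS and 285, 170.1 and 89.5 CPM in Lipo-BiTE (log2 fold change 3.53 ± 0.36 SE, adjusted p = 0.00076). Itga4, which carries leukocytes across vessel walls, was at 10.1, 14.8 and 16.6 CPM in PBS and 195, 136 and 61.9 CPM in Lipo-BiTE (log2 fold change 3.24 ± 0.38 SE, adjusted p = 0.00076). Itgb1, the shared beta subunit, measured 29.3, 28.9 and 29.8 CPM in PBS and 359, 185 and 141 CPM in Lipo-BiTE (log2 fold change 2.96 ± 0.31 SE, adjusted p = 0.00076), and its PBS libraries were close to each other. F11r, a tight junction molecule also on leukocytes, measured 1.71, 1.48 and 1.78 CPM in PBS and 36.3, 22.2 and 10 CPM in Lipo-BiTE (log2 fold change 3.78 ± 0.46 SE, adjusted p = 0.00076). Cdh1, E-cadherin, measured 5.12, 3.07 and 3.8 CPM in PBS and 43.2, 13.1 and 17.9 CPM in Lipo-BiTE, 6.2-fold higher and 3.9-fold without Lipo-BiTE 1. Actb, cytoplasmic actin, had the third largest gain in CPM among genes named by rule, at 2268, 2254 and 2266 CPM in PBS and 5583, 3816 and 3305 CPM in Lipo-BiTE (log2 fold change 0.90 ± 0.19 SE, adjusted p = 0.0069). It is often used as a reference gene, and its groups did not overlap here.

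Of 31 phosphoinositide and RAS regulators 13 rose (41.9%, against 13.8% over all genes) and none fell, with a median of 0.38. The number lower was 1 without Lipo-BiTE 3. Inpp5d, the SHIP1 lipid phosphatase of blood cells, measured 12.9, 21.1 and 16.9 CPM in PBS and 297, 154 and 88.5 CPM in Lipo-BiTE (log2 fold change 3.40 ± 0.40 SE, adjusted p = 0.00076). Rasgrp1, a RAS exchange factor of lymphocytes, was at 4.53, 5.55 and 5.05 CPM in PBS and 96.7, 49.6 and 32.9 CPM in Lipo-BiTE (log2 fold change 3.56 ± 0.41 SE, adjusted p = 0.00076). Rasgrp4, its relative in mast cells and neutrophils, measured 3.86, 6.43 and 7.49 CPM in PBS and 158, 89.7 and 40.2 CPM in Lipo-BiTE (log2 fold change 4.01 ± 0.45 SE, adjusted p = 0.00076). In these 3 genes the groups did not overlap. T cell markers (summed 57.2 to 68.6 CPM in PBS and 268 to 507 CPM in Lipo-BiTE) and neutrophil markers (169 to 363 CPM and 1350 to 7560 CPM) were higher in the same libraries, and their part in this list was not tested.

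The Wnt, Hedgehog and Notch pathways changed in few members, whereas the TGF-beta and BMP list had larger shares of calls. In the Wnt pathway 3 of 30 genes rose and 2 fell (10% and 6.67%), with 1 without PBS 1 or Lipo-BiTE 1 for those that rose and 1 for those that fell without any 1 library other than Lipo-BiTE 3. Fzd6, a Wnt receptor, measured 52.3, 51.8 and 51 CPM in PBS and 25.3, 26.3 and 30.7 CPM in Lipo-BiTE (log2 fold change -0.91 ± 0.14 SE, adjusted p = 0.0015), and its PBS libraries were close to each other. Lef1, a nuclear partner of beta-catenin that T cells use, measured 1.78, 1.65 and 1.66 CPM in PBS and 8.13, 6.77 and 4.58 CPM in Lipo-BiTE (log2 fold change 1.93 ± 0.27 SE, adjusted p = 0.001). None of 16 Hedgehog and Notch genes rose and 1 fell, Gli2 (named after its value was seen), and the number lower was 0 without PBS 2, PBS 3, Lipo-BiTE 1 or Lipo-BiTE 2 and 3 without Lipo-BiTE 3. In the TGF-beta and BMP list 8 of 30 rose and 3 fell (26.7% and 10%, against 13.8% and 3.22% over all genes). The number that rose was 4 without PBS 1, PBS 3 or Lipo-BiTE 1 and 5 without Lipo-BiTE 2. The number that fell was 1 without PBS 1, PBS 2 or Lipo-BiTE 2, 0 without PBS 3 or Lipo-BiTE 1 and 6 without Lipo-BiTE 3. Id2, a dominant-negative helix-loop-helix factor, measured 14.8, 12.6 and 13.1 CPM in PBS and 124, 83 and 51 CPM in Lipo-BiTE (log2 fold change 2.67 ± 0.29 SE, adjusted p = 0.00076). Acvrl1, a BMP receptor of vessels and macrophages, had 5.94, 8.91 and 5.23 CPM in PBS and 63.1, 34.2 and 19.4 CPM in Lipo-BiTE (log2 fold change 2.53 ± 0.39 SE, adjusted p = 0.0017). Among receptor tyrosine kinases and their ligands 5 of 34 rose and 2 fell (14.7% and 5.88%), with 3 without PBS 2, PBS 3 or Lipo-BiTE 1 for the first and 1 without PBS 1 or PBS 2, 0 without PBS 3, Lipo-BiTE 1 or Lipo-BiTE 2 and 4 without Lipo-BiTE 3 for the second. Csf1, the growth factor of macrophages, measured 124, 138 and 134 CPM in PBS and 519, 411 and 204 CPM in Lipo-BiTE (log2 fold change 1.52 ± 0.27 SE, adjusted p = 0.0034), and its receptor Csf1r measured 28.9, 30.9 and 27.7 CPM in PBS and 637, 301 and 199 CPM in Lipo-BiTE, 13-fold higher and 8.59-fold without Lipo-BiTE 1.

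Adhesion and orphan G protein-coupled receptors rose in 19 of 58 tested and fell in 2, and the number lower was 1 without PBS 1, PBS 2, PBS 3 or Lipo-BiTE 1. Adgre4, an adhesion receptor of myeloid cells, had 2.6, 2.77 and 1.37 CPM in PBS and 58.4, 37.1 and 16.1 CPM in Lipo-BiTE (log2 fold change 4.05 ± 0.46 SE, adjusted p = 0.00076). Adgra3, an adhesion receptor outside the blood lineages, went the other way at 90.5, 75.2 and 83.1 CPM in PBS and 33.5, 41.4 and 52.6 CPM in Lipo-BiTE (log2 fold change -0.96 ± 0.18 SE, adjusted p = 0.0045) and kept its call in each leave-one-out fit. The deposited domain annotation is not complete. Of its Pfam domains with at least 20 tested genes, chosen after the file was seen, the C-type lectin domain rose in 24 of 45 genes and the SH2 domain in 27 of 50. By contrast KRAB zinc finger genes rose in 1 of 139 and fell in 4.

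Transporters were near the background. Of 238 tested solute carriers 36 (15.1%) rose and 6 (2.52%) fell, against 13.8% and 3.22% over all genes, and the number higher was 22 without Lipo-BiTE 1. Slc7a8, which carries large neutral amino acids, measured 3.93, 2.6 and 3.15 CPM in PBS and 49.1, 29.9 and 23.4 CPM in Lipo-BiTE (log2 fold change 3.41 ± 0.30 SE, adjusted p = 0.00076). Slc15a3, a lysosomal peptide transporter, was at 20, 25.1 and 20.9 CPM in PBS and 313, 217 and 79.3 CPM in Lipo-BiTE (log2 fold change 3.21 ± 0.42 SE, adjusted p = 0.00092). The number of solute carriers called lower was 0 without PBS 2, PBS 3, Lipo-BiTE 1 or Lipo-BiTE 2 and 14 without Lipo-BiTE 3. It was 11 with total counts and 14 in the Wald test of DESeq2. Potassium channels rose in 7 of 34 and fell in 2, with 4 without PBS 1 or PBS 2 and 3 without Lipo-BiTE 1 for those that rose and 0 without PBS 1, PBS 2, Lipo-BiTE 1 or Lipo-BiTE 2 and 1 without PBS 3 for those that fell. Kcna3, the voltage-gated channel of T cells, measured 0.223, 1.06 and 1.13 CPM in PBS and 11.8, 5.64 and 4.8 CPM in Lipo-BiTE (log2 fold change 3.15 ± 0.59 SE, adjusted p = 0.0041). In PBS 1 it was at the level of 3 counts.

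Zinc finger genes named Zfp were called higher in 15 of 291 (5.15%) and lower in 12 (4.12%), against 13.8% and 3.22% over all genes, and homeobox genes were called higher in none of 50 and lower in 1. The number of homeobox genes higher was 1 without PBS 2 or Lipo-BiTE 3, and the number lower was 0 without PBS 1, PBS 2, PBS 3, Lipo-BiTE 1 or Lipo-BiTE 2 and 5 without Lipo-BiTE 3. The number of Zfp genes higher was 8 without Lipo-BiTE 1, and the number lower was 3 without PBS 1, 5 without PBS 3, 1 without Lipo-BiTE 1 and 4 without Lipo-BiTE 2. Zfp799 measured 27.8, 27 and 27.6 CPM in PBS and 14.4, 14.7 and 17.5 CPM in Lipo-BiTE (log2 fold change -0.82 ± 0.16 SE, adjusted p = 0.006). In the deposited family annotation ETS factors rose in 7 of 22, and HMG factors rose in 2 and fell in 4 of 32. Clock genes rose in 7 of 19 and fell in none, with 6 or 7 in the leave-one-out fits. Bhlhe40, a repressor that also acts in T cells and macrophages, measured 74.7, 83.9 and 91.5 CPM in PBS and 527, 365 and 196 CPM in Lipo-BiTE (log2 fold change 2.12 ± 0.29 SE, adjusted p = 0.001). Per2, of the negative arm of the clock, had 2.3, 3.07 and 2.67 CPM in PBS and 22.3, 11.5 and 7.49 CPM in Lipo-BiTE (log2 fold change 2.35 ± 0.39 SE, adjusted p = 0.0021). Rora, a nuclear receptor of its positive arm, had 3.19, 2.36 and 3.27 CPM in PBS and 16.7, 9.63 and 9.82 CPM in Lipo-BiTE (log2 fold change 2.03 ± 0.27 SE, adjusted p = 0.00091). The times of day of collection are not in the labels.

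Chromatin genes rose in 4 of 36 (11.1%) and fell in none, against 13.8% and 3.22% over all genes. Kdm6b, a histone demethylase, measured 90.6, 178 and 189 CPM in PBS and 540.2, 427 and 302 CPM in Lipo-BiTE (log2 fold change 1.47 ± 0.29 SE, adjusted p = 0.0063). Tet2, which oxidises methylcytosine, had 42.1, 61.6 and 68.7 CPM in PBS and 271, 182 and 104 CPM in Lipo-BiTE (log2 fold change 1.69 ± 0.31 SE, adjusted p = 0.0044). Xist, the RNA that coats the inactive X chromosome in female cells, measured 22, 21 and 26 CPM in PBS and 349, 243 and 143 CPM in Lipo-BiTE (log2 fold change 3.41 ± 0.32 SE, adjusted p = 0.00076), a 10.7-fold difference with no overlap and the order Lipo-BiTE 1, 2, 3. Genes on the X chromosome as a group stayed near the background, with 70 of 469 higher (14.9%) and 17 lower (3.62%). Chromosome 12 had the smallest share of rises and the largest share of falls among the chromosomes, with 53 of 615 higher (8.62%) and 41 lower (6.67%), and a median of -0.18. The median of chromosome 3 was -0.17 and that of chromosome 2 was -0.15. Of 16 imprinted genes 2 rose and 1 fell (12.5% and 6.25%), and the number higher was 0 without PBS 1, Lipo-BiTE 1 or Lipo-BiTE 2 and 1 without PBS 2 or PBS 3. The gene that fell was Peg3, a paternally expressed zinc finger gene, at 347, 364 and 403 CPM in PBS and 162, 234 and 242 CPM in Lipo-BiTE (log2 fold change -0.80 ± 0.17 SE, adjusted p = 0.0087), and it was called lower in each leave-one-out fit.

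By biotype, 14.8% of 13254 protein-coding genes rose and 3.49% fell. Long intergenic RNAs rose in 8.28% of 459 and fell in 1.53%, and antisense RNAs in 7.59% and 1.01% of 395. Whether the counting kept strand is not stated, so reads of an antisense gene and its partner cannot be told apart.

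The largest rises among non-overlapping genes with at least 20 CPM included neutrophil chemokines and myeloid receptors. Cxcl3 measured 5.49, 11.5 and 12 CPM in PBS and 394, 330.0 and 65.4 CPM in Lipo-BiTE (log2 fold change 4.76 ± 0.78 SE, adjusted p = 0.0023). Cxcl2 was at 38.8, 80.9 and 74.3 CPM in PBS and 2020.5, 1623 and 407 CPM in Lipo-BiTE (log2 fold change 4.38 ± 0.70 SE, adjusted p = 0.0021); both are chemokines for neutrophils. Csf2ra and Csf2rb, the 2 chains of the GM-CSF receptor, rose 21.9-fold and 20.4-fold. Hcar2, a receptor for niacin and ketone bodies, measured 15.7, 33.9 and 32.7 CPM in PBS and 819, 623 and 197 CPM in Lipo-BiTE (log2 fold change 4.31 ± 0.58 SE, adjusted p = 0.00099). Ptafr, the receptor of platelet-activating factor, was at 5.86, 14 and 12 CPM in PBS and 338, 219 and 75.8 CPM in Lipo-BiTE (log2 fold change 4.30 ± 0.57 SE, adjusted p = 0.00093). Irak3, a brake on Toll-like receptor signalling, rose 21.7-fold and Adrbk2, a receptor kinase, 20.5-fold. Several others depended on Lipo-BiTE 1 for their size: Cd300lf was 21.2-fold higher and 12.7-fold without it, Entpd3 22.1-fold and 13.4-fold, and Tarm1 20.2-fold and 11.6-fold. Il1b, the cytokine interleukin 1 beta, measured 86.9, 154 and 149.9 CPM in PBS and 2838, 1627 and 552 CPM in Lipo-BiTE, 12.8-fold higher and 8.38-fold without Lipo-BiTE 1. The summed neutrophil markers were 7560, 3490 and 1350 CPM in Lipo-BiTE 1, 2 and 3, the same order as in these genes, and their part was not tested.

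The largest falls were smaller and spread over other functions. After Col1a2 and Fads2, described above, they included Slfn9, of the Schlafen family, at 109.9, 76.7 and 83.9 CPM in PBS and 27.5, 35.8 and 43.4 CPM in Lipo-BiTE (log2 fold change -1.34 ± 0.20 SE, adjusted p = 0.0012). Megf10, an engulfment receptor, measured 24.4, 31.2 and 28.5 CPM in PBS and 9.15, 13.2 and 11.6 CPM in Lipo-BiTE (log2 fold change -1.30 ± 0.24 SE, adjusted p = 0.0036). Fstl1, a secreted glycoprotein of mesenchymal cells, was at 99.9, 110.2 and 112 CPM in PBS and 22.1, 55 and 54.8 CPM in Lipo-BiTE (log2 fold change -1.29 ± 0.28 SE, adjusted p = 0.011). Neto2, an auxiliary subunit of kainate receptors, measured 35.9, 31 and 29.6 CPM in PBS and 10.9, 13.8 and 16.4 CPM in Lipo-BiTE (log2 fold change -1.23 ± 0.25 SE, adjusted p = 0.0069). In these 4 the groups did not overlap, and each call held whichever library was left out. Among genes named by rule, the largest losses in CPM were those of Lgals1, Serpinh1, Sparc, Calu, Scd2, Hsp90b1, Pcolce, Cald1, Cd63 and Asph. None of them kept its call in every leave-one-out fit. Serpinh1, Calu, Scd2, Hsp90b1, Pcolce, Cald1 and Cd63 kept it only without Lipo-BiTE 3.

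A few of the genes described were also set against Lipo-TriTE, the third labelled group, in a direct test of the difference between the agents. The test uses the same Lipo-BiTE libraries, and no rule picked these genes from those described. All had been named for their change against PBS in those libraries. That choice by itself can push the difference between the agents the opposite way from the change against PBS. In that test 4.87% of all genes were higher in Lipo-TriTE and 5.2% lower. The log2 fold change, Lipo-TriTE over Lipo-BiTE, was -2.05 ± 0.41 SE, adjusted p = 0.014 for Hspa1b, -1.67 ± 0.39 SE, adjusted p = 0.025 for Egr1 and -1.49 ± 0.27 SE, adjusted p = 0.0099 for Csf1, all lower in Lipo-TriTE. It was 3.11 ± 0.25 SE, adjusted p = 0.00015 for Lef1 and 2.27 ± 0.34 SE, adjusted p = 0.0045 for Postn, both higher in Lipo-TriTE. For Mcm6 the value was 0.19 ± 0.13 SE, adjusted p = 0.39, and for Elovl6 -0.07 ± 0.22 SE, adjusted p = 0.89, and neither difference was called.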

How the data were processed

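Bulk RNA-seq of tumours was analysed in 3 PBS and 3 Lipo-BiTE libraries, and 3 Lipo-TriTE libraries entered the fit to estimate the spread. The authors deposited 1 table of unnormalised read counts, as its whole numbers and unequal library totals show. Per the labels' protocols the cDNA was made from fragmented mRNA with random primers, and libraries were amplified by PCR. No aligner or counting tool is named in the labels or headers. The gene identifiers are of C57BL/6NJ gene models. Deposited gene lengths and positions were not used for levels.

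Names came from the deposited table of 44806 entries, of which 402 lacked a symbol and were named from their deposited description, and 1053 of 1083 listed symbols were found. Unnamed loci (3710 entries) took 1.17% to 1.86% of the counts of the 6 libraries. Counts were filtered with filterByExpr, scaled by TMM and tested with the quasi-likelihood F test of edgeR 4.0.16 in R 4.3.3 on 9 libraries in 3 groups without further terms. Benjamini-Hochberg adjustment ran over 16596 genes, and the threshold for a call was an adjusted p of 0.05. CPM use TMM-scaled totals, and 3 counts correspond to 0.177 to 0.237 CPM. The fit was tested on simulated data.

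The gene lists (73, and 18 of cell markers) were chosen with earlier results of these data known. They are described by counts and medians, with no set test. Genes were named by rule: up to 3 members of a list called in each direction with the smallest p and its most abundant member, the largest changes among called genes with at least 20 CPM and no overlap between groups (15 rises, 15 falls, 10 gains and 10 losses in CPM, without predicted models, segments and pseudogenes), and a panel of Xist, Erbb2, Upk3a, Krt8, Cd3e and Csf1r. Not every gene that the rule picks is described. Several most abundant members that were not called are left out above. Examples are Pkm of glycolysis (log2 fold change 0.138, adjusted p = 0.58) and Pcna of DNA replication (-0.485, adjusted p = 0.1). Further examples are Npm1 of ribosome biogenesis (-0.599, adjusted p = 0.1) and Lrp1 of lipid uptake and efflux (0.605, adjusted p = 0.18). Other most abundant members, such as Psap and Egr1, were called. Genes outside the rule are said to be named after their values were seen, as are the members of a list given by name alone. Promoter windows are from RefSeq (GRCm38.p6). The alternatives were DESeq2 size factors, total counts, other filters, the Wald test of DESeq2 1.42.0, the 6 libraries alone, a replicate block and leaving out each library. Some results are not reported here.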

Additional observations from a re-analysis of the deposited data

How the results depend on the processing

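The number of genes called higher stayed within 1.5 times of 2283 under every alternative but the removal of Lipo-BiTE 1, with a range of 1455 to 2656 when 1 library was left out. The number called lower, 534, was 988 with total counts, 839 with no filter and 995 in the Wald test of DESeq2, and ranged from 80 to 971 when 1 library was left out. Among counts on the lists described, of 3 or more in either fit, those that moved by more than 1.5 times were, beside those given with the lists, 1 higher against 3 for fatty acid oxidation, 5 lower against 1 for mitochondrial ribosomal proteins, 6 lower against 3 for proteasome, 3 lower against 1 for ER chaperones and unfolded protein response, 4 lower against 2 for receptor tyrosine kinases and ligands and 4 lower against 2 for adhesion and orphan G protein-coupled receptors with total counts. They were 4 lower against 1 for mitochondrial ribosomal proteins, 5 lower against 3 for proteasome, 3 lower against 1 for ER chaperones and unfolded protein response, 4 lower against 2 for receptor tyrosine kinases and ligands, 5 lower against 1 for homeobox genes and 4 lower against 2 for adhesion and orphan G protein-coupled receptors in the Wald test of DESeq2, and 1 higher against 3 for fatty acid oxidation, 2 lower against 4 for mitosis, 2 lower against 4 for cell cycle inhibitors and cyclins, 3 higher against 5 for receptor tyrosine kinases and ligands and 4 lower against 2 for receptor tyrosine kinases and ligands with the 6 libraries alone. With the replicate number as a block they were 1 higher against 3 for fatty acid oxidation, 4 lower against 8 for nucleotide synthesis, 2 lower against 4 for serine and one-carbon metabolism, 3 lower against 6 for ribosome biogenesis, 7 lower against 13 for DNA replication, 2 lower against 4 for cell cycle inhibitors and cyclins and 7 lower against 12 for proteoglycans and matrix glycoproteins. With that block 282 genes were called lower and 1892 higher. The numbers do not pair the libraries: deviations of same-numbered libraries correlated at -0.066, -0.0052 and -0.079. Of the 106 called genes given with CPM values, 102 were called again whichever library was left out. Most of these were picked by smallest p or largest change, so that share does not hold for all calls. Over all genes, 1531 of the 2817 calls recurred without Lipo-BiTE 1. The log2 fold change of Erbb2, not called in any fit, ranged from -0.305 without PBS 1 to 0.0415 without Lipo-BiTE 1. Falls are mostly under 2-fold, and the cause of the gradient among the Lipo-BiTE libraries was not tested.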
